A study of Canis lupus familiaris with 26 samples.

Results

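The effect of 5 days of cyclooxygenase 2 (COX2) inhibition on the early canine corpus luteum (CL) was read from the 8 libraries collected on day 5 after ovulation, out of 26 libraries of the series. They were chosen by their labels alone: 4 came from dogs given firocoxib (animals 1, 2, 4 and 5) and 4 from control dogs (animals 1, 3, 4 and 5). The treated bitches had received 10 mg/kg of firocoxib (Previcox), a selective COX2 inhibitor, by mouth each day from ovulation until ovariohysterectomy. The controls were collected on the same day; they are called untreated in the deposited design and placebo-treated in the study's methods. All were mixed-breed dogs of differing ages, no gene was altered in any group, and each library came from whole CL tissue of 1 dog, so that all cell types of the gland were measured together. In such tissue fewer cells of a type and less RNA per cell cannot be told apart.

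COX2, the product of PTGS2, converts arachidonic acid into the precursor of all prostaglandins, from which specific synthases make prostaglandin E2, F2 alpha, D2, prostacyclin and thromboxane. In the dog the young CL grows and makes progesterone at first without depending on pituitary hormones, and prostaglandin E2 is known as one of its local luteotropic factors. Around this time the former follicle wall is invaded by vessels, whose coat of pericytes and smooth muscle cells carries contractile proteins, and the tissue is remodelled as matrix is laid down.

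Between 14604330 and 22658950 reads per library were counted on genes, and 15038 to 15660 genes had reads. Total reads, genes with reads and the share of the 10 most counted genes, 12.7% to 17.8%, differed between groups by less than their spread (two-sided exact permutation tests, p = 0.571, 0.343 and 0.629, with 0.0286 the smallest p that 4 against 4 samples allow). The library of treated animal 1 stood apart. Its log2 CPM values (reads of a gene scaled to a common library size) correlated with those of the other 7 libraries by 0.709 to 0.870 across genes, while the other 21 pairs reached 0.900 to 0.970. It was also the shallowest library. Results are therefore also given without it where that starts or ends a call or moves a value strongly. Chi-square per degree of freedom between libraries of the same group was at least 57.9, so no library was a copy of another. Genes that mark oocytes were found mainly in control 1 and treated 1, with summed levels of the 8 tested markers of 112.2 and 114.5 CPM, against 4.39 to 30.3 CPM in the other 6 libraries. ZP3, a protein of the oocyte's coat, had 20.0, 0, 4.56 and 1.35 CPM in the controls and 31.9, 1.71, 0.305 and 0.791 CPM in the treated libraries. Here and below the values of single libraries follow the order of animals 1, 3, 4 and 5 for controls and 1, 2, 4 and 5 for treated dogs, as CPM scaled with edgeR's TMM factors.

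No gene passed between treated and control CL among the 13651 tested with edgeR's quasi-likelihood test, which called 0.0% of them at a P-value under 0.01 and a false discovery rate (FDR) under 0.1. The smallest FDR was 0.412. At an unadjusted P under 0.05 stood 1609 genes, of which 1189 (8.71% of those tested) were higher and 420 (3.08%) lower in treated CL. At a P under 0.01 stood 179 higher genes (1.31%) and 43 lower genes (0.315%). In 652 genes (4.78%) all 4 treated libraries lay above all 4 controls, and in 543 genes (3.98%) all lay below. The median log2 fold change over all genes was 0.031. DESeq2, the tool of the study, called 100 genes at the same thresholds and 104 without its cutoffs for outliers and low counts, while limma voom called 0 and put 58.6% of its genes under 0.05 on the higher side, against 73.9% with edgeR. Of these 100 genes, 84 (0.615%) were higher and 16 (0.117%) lower in treated CL, and in 81 of them the libraries did not overlap between groups.

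Single libraries decided how many genes were called. Without treated 1, edgeR called 0 genes and 1039 had an unadjusted P under 0.05, of which 668 (4.89%) were higher and 371 (2.72%) lower. Of the genes under 0.05 with all libraries, 876 stayed under 0.05 in the same direction. This number of genes under 0.05 was 658 without control 3 and 893 without control 5. DESeq2 called 112 genes without treated 1, and 70 of the original 100 were among them. Its count was 46 without control 1, 9 without control 3, 21 without control 4, 13 without control 5, 205 without treated 4 and 291 without treated 5. Without treated 5, edgeR called 1 gene, CNN1 (log2 fold change 3.79, SE 0.41, FDR = 0.0606). Values below are therefore described as higher or lower in the treated libraries, with their errors, and a gene is said to have passed only with the tool that is named. Counts of list members under 0.05 stand beside 8.71% of all genes higher and 3.08% lower.

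**Figure D1:**
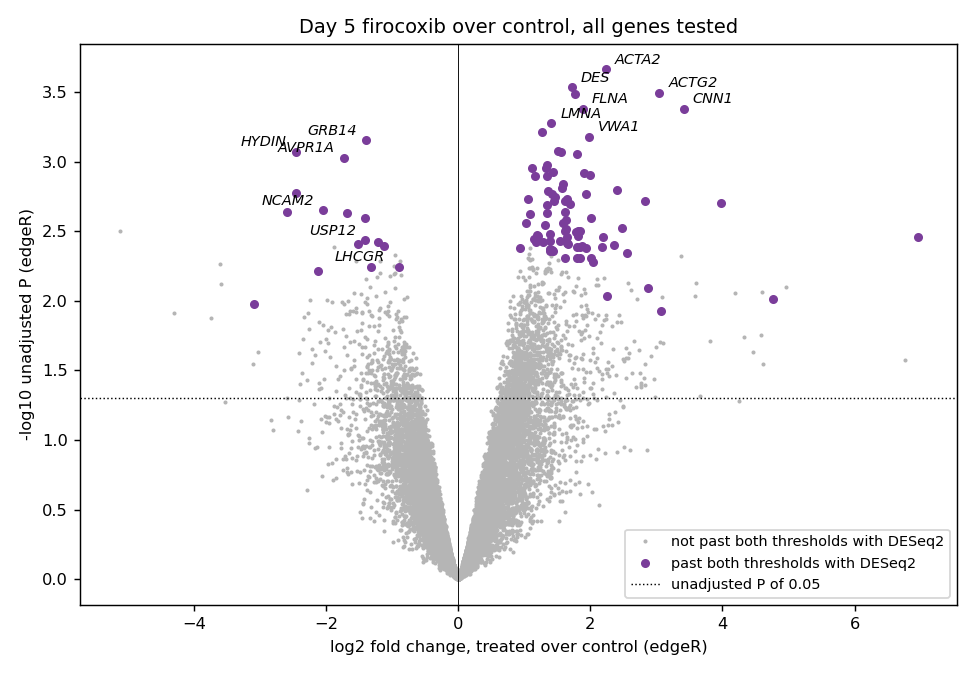
Each point is 1 of the 13651 genes tested, with edgeR's log2 fold change of treated over control on day 5 on the horizontal axis and the negative log10 of its unadjusted P on the vertical axis. The 100 genes that passed with DESeq2 are purple, and 84 of them lie to the right, with ACTA2, ACTG2, CNN1, DES and FLNA at the top, while the dotted line marks an unadjusted P of 0.05.

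Genes of the smooth muscle contractile apparatus had higher values in treated CL. Of 24 genes listed, 15 had a symbol and were tested, and all 15 were higher in the treated group, with a median log2 fold change of 1.72 against 0.031 over all genes. An unadjusted P under 0.05 was found in 12 of the 15, none lower (8.71% of all genes were higher at that P), and 7 did not overlap between groups (4.78% of all genes). With DESeq2 9 of them passed, against 0.615% of all genes. Without treated 1 the median was 1.68 and 12 were still under 0.05, and with any single library left out it was 10 to 14. Symbols were available only for genes on the study's own lists of differentially expressed genes, and 3 of the 15 had a symbol from the day 5 lists alone. The other 12 are on another list of the study and may be on a day 5 list too. The study's comparison of days also used these day 5 controls. The 15 genes, with or without the 3, are therefore not independent evidence of the direction, and this holds for the lists below as well. Without the 3 genes of the day 5 lists alone, the median of the other 12 was 1.63, 9 were under 0.05, 4 did not overlap and 7 passed with DESeq2. The 4218 tested genes with a usable symbol held 396 higher ones under 0.05. Of these 4218, 174 did not overlap on the higher side and 52 passed higher with DESeq2.

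ACTA2 (ENSCAFG00000015708), the alpha actin of vascular smooth muscle, had 73.2, 57.0, 71.0 and 67.7 CPM in the controls and 286.1, 295.1, 554.2 and 129.3 CPM in the treated libraries. The lowest treated library was above every control, and the log2 fold change was 2.23 (SE 0.41, FDR = 0.412 with edgeR and 0.000299 with DESeq2). ACTG2 (ENSCAFG00000008756), the enteric gamma actin of smooth muscle, had 69.9, 38.1, 46.8 and 53.9 CPM in the controls and 206.6, 644.6, 760.5 and 110.4 CPM in treated CL, a log2 fold change of 3.05 (SE 0.58, FDR = 0.412 with edgeR and 0.000151 with DESeq2). Again the groups did not overlap, and the treated libraries were spread far more widely than the controls. The actin genes are close in sequence, and how reads that fit several of them were counted is not given in the sources used here, so their counts may be partly shared.

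CNN1 (ENSCAFG00000017326), or calponin, which restrains myosin on actin in smooth muscle, had 7.26, 4.62, 5.66 and 7.75 CPM in the controls. In the treated libraries it had 50.7, 66.2, 144.4 and 8.76 CPM, so that treated 5 lay just above the highest control. The log2 fold change of 3.41 (SE 0.68) had an FDR of 0.412 with edgeR and 0.000151 with DESeq2. DES (ENSCAFG00000015475), the muscle intermediate filament desmin, had 58.9, 31.9, 50 and 39.4 CPM in the controls and 213.3, 101.5, 121.5 and 159.1 CPM in treated CL. All 4 treated libraries were above the controls, and here treated 5 was the second highest (log2 fold change 1.72, SE 0.33, DESeq2 FDR = 0.00231). FLNA (ENSCAFG00000019521), which crosslinks actin filaments, had 303.6, 139.7, 256.3 and 216.5 CPM in the controls and 1154.2, 720.9, 1043.7 and 458.6 CPM in treated CL (log2 fold change 1.88, SE 0.37, DESeq2 FDR = 0.00231).

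TAGLN, the actin-binding protein transgelin, had 228.6, 99.6, 151.8 and 168.0 CPM in the controls and 606.8, 934.9, 841.8 and 209.9 CPM in treated CL. Treated 5 was within the range of the controls and the other 3 treated libraries were above it (log2 fold change 2.0, SE 0.46, DESeq2 FDR = 0.013). MYL9, a regulatory light chain of myosin, and TPM2, a tropomyosin, likewise overlapped only through treated 5, with log2 fold changes of 1.42 and 1.54, and both passed with DESeq2 (FDR = 0.0859 and 0.071). Without treated 1, MYL9 did not pass (FDR = 0.147). CSRP1, a partner of the actin cytoskeleton in smooth muscle, had a log2 fold change of 1.57 without overlap and passed with DESeq2 (FDR = 0.0281). ACTA1, the skeletal muscle actin, was barely counted, at 0.513, 0.178, 0.461 and 0 CPM in the controls and 1.65, 1.35, 2.97 and 1.36 CPM in treated CL. MYH11, the smooth muscle myosin heavy chain, had 94.6, 82.0, 122.9 and 41.6 CPM in the controls and 171.9, 182.0, 960.9 and 44.2 CPM in treated CL, with 1 library far above the rest (log2 fold change 1.99, SE 0.78). TPM1, SYNM, KCNMB1 and PGM5 had log2 fold changes of 0.50, 0.89, 1.25 and 1.08, all with overlapping groups. Without treated 1, KCNMB1 had a log2 fold change of 1.52 and a DESeq2 FDR of 0.0213.

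The contractile genes varied together within both groups. Control 1 had the highest control value in 11 of the 15 genes and control 3 the lowest in 9. The summed level of the 15 genes was 4677.3, 4786.9, 7097.3 and 2022.2 CPM in treated libraries, against 1792.5, 1006.1, 1441.1 and 1304.5 CPM in the controls. Treated 4 had the highest treated value in 10 of the 15 genes and treated 5 the lowest in 12. Treated 1, the library that stood apart, was the highest for only 2 of them. Without treated 5 the log2 fold changes of ACTA2 and CNN1 were 2.5 and 3.79. Pericyte markers other than the contractile genes showed no common direction: MCAM, an adhesion molecule of vessel walls, had a log2 fold change of 1.08 (SE 0.31) without overlap between groups, while the median of the 3 tested markers was 0.22. MCAM had a DESeq2 FDR of 0.123, or 0.0965 without treated 1. The 3 pericyte markers summed to 175.2 to 416.0 CPM in controls and 245.8 to 421.5 CPM in treated CL. The 8 tested markers of ovarian stroma had a median of -0.094 and summed to 11186.0 to 15426.0 CPM in controls and 8693.5 to 19735.7 CPM in treated CL, highest in treated 4 and lowest in treated 5. The part of these cells in the contractile values was not tested.

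**Figure D2:**
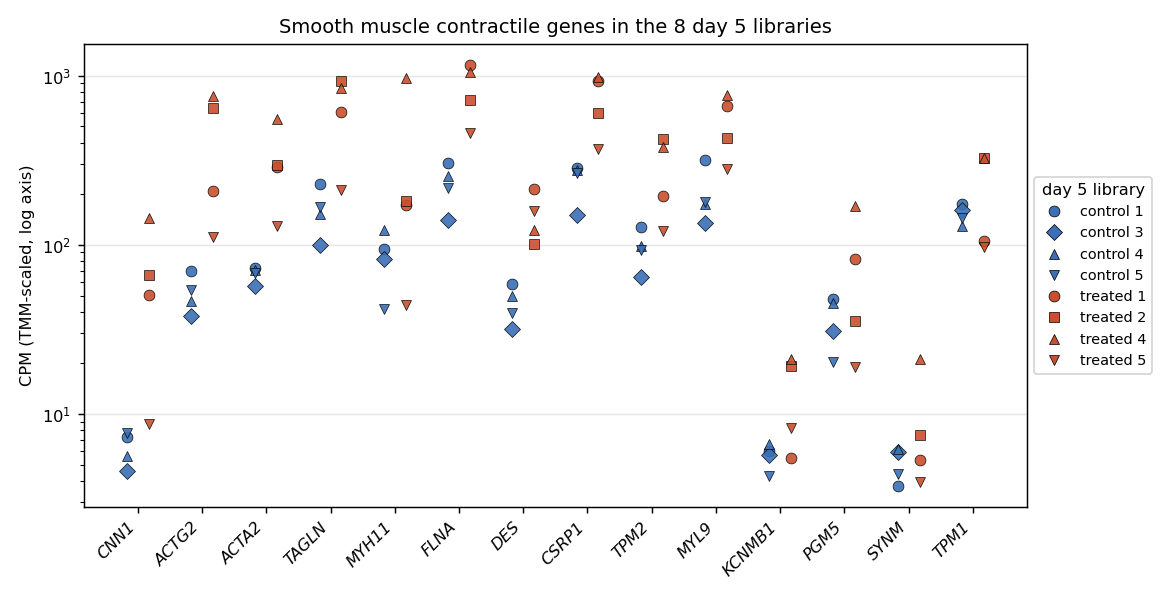
CPM on a log axis for 14 of the 15 tested smooth muscle contractile genes (ACTA1, near 0, is left out), with controls in blue, treated libraries in orange and 1 marker shape per animal number. Treated values lie above the controls for most genes, and treated 5 (downward triangles), the lowest treated library in 12 of the 15 genes, is closest to the controls.

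Beyond smooth muscle, several genes that anchor the cytoskeleton to the nucleus, the membrane and the matrix were higher in treated CL. LMNA (ENSCAFG00000016863), which encodes lamins A and C of the nuclear envelope, had 73.9, 45.9, 70.6 and 58.8 CPM in the controls and 198.9, 125.2, 203.4 and 135.4 CPM in treated CL (log2 fold change 1.41, SE 0.29, DESeq2 FDR = 0.00816). PLEC (ENSCAFG00000001433), the linker protein plectin, had 54.1, 46.1, 65.0 and 45.5 CPM in the controls and 255.5, 108.1, 154.1 and 104.8 CPM in treated CL. Neither gene overlapped between groups. The log2 fold change of PLEC, 1.56 (SE 0.34, DESeq2 FDR = 0.014), was 1.23 without treated 1, in which it was highest.

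ITGA5 (ENSCAFG00000006491), the integrin chain of the fibronectin receptor, had 211.9, 149.7, 194.8 and 137.5 CPM in the controls and 494.5, 403.7, 359.0 and 413.5 CPM in treated CL. Its treated libraries lay close together and above all controls (log2 fold change 1.27, SE 0.26, DESeq2 FDR = 0.00702). TUBB6 (ENSCAFG00000018832), a beta tubulin, had a log2 fold change of 1.52 (SE 0.33, DESeq2 FDR = 0.0203), with 11.8 to 23.9 CPM in controls and 32.0 to 69.0 CPM in treated CL. CKB (ENSCAFG00000018277), the creatine kinase of brain and smooth muscle, had 6.99 to 11.7 CPM in controls and 16.6 to 54.8 CPM in treated CL, a log2 fold change of 1.80 (SE 0.39, DESeq2 FDR = 0.014).

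MYO1C, a myosin that moves membranes, did not overlap between groups and passed with DESeq2 (log2 fold change 1.08, FDR = 0.0511). All 7 tested genes of caveolae and membrane recycling were higher in treated CL, 4 of them at an unadjusted P under 0.05 (8.71% of all genes higher). Their median was 0.88, or 0.69 without treated 1. EHD2 (ENSCAFG00000004095), an ATPase at the neck of caveolae, had 43.8, 28.5, 44.0 and 32.9 CPM in the controls and 159.2, 74.3, 96.8 and 73.7 CPM in treated CL (log2 fold change 1.44, SE 0.33, DESeq2 FDR = 0.028). Its relative EHD1, which recycles receptors from endosomes, had a log2 fold change of 1.06 without overlap and did not pass (DESeq2 FDR = 0.132). Of the 7 caveolar genes 2 had a symbol from the day 5 lists alone. The median of the other 5 was 0.35, and 2 of them were under 0.05.

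Components of the extracellular matrix were mostly higher in treated CL. Of the 23 tested, 20 had a positive log2 fold change and 13 an unadjusted P under 0.05, none lower (8.71% of all genes higher), with a median of 0.87 against 0.031 over all genes. The groups did not overlap in 6 of them (4.78% of all genes), and 6 passed with DESeq2 (0.615%). Without treated 1 the median was 0.80 and 10 genes were under 0.05, and without treated 4 these were 8. Treated 1 held the highest treated value for 12 of the 23 genes. Without the 3 genes named from the day 5 lists alone, the median was 0.81. Of the other 20 genes, 10 were higher under 0.05, 3 did not overlap and 3 passed with DESeq2.

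HSPG2, or perlecan, a proteoglycan of basement membranes, had 180.2, 155.8, 246.2 and 146.7 CPM in the controls and 1103.8, 355.7, 554.5 and 335.8 CPM in treated CL. The groups did not overlap, treated 1 was well above the other treated libraries, and the log2 fold change was 1.69 (SE 0.41, DESeq2 FDR = 0.0326), or 1.20 without treated 1. VWA1 (ENSCAFG00000019258), a matrix protein bound to perlecan, had 3.37, 2.73, 5.57 and 4.38 CPM in the controls and 28.3, 10.7, 11.5 and 13 CPM in treated CL (log2 fold change 1.98, SE 0.42, DESeq2 FDR = 0.00852, with a log2 fold change of 1.57 without treated 1). COL6A2, a chain of the microfibrillar collagen VI, had 71.6, 25.6, 85.1 and 41.5 CPM in the controls and 300.5, 125.4, 154.9 and 117.8 CPM in treated CL. COL6A2 passed with DESeq2 (log2 fold change 1.64, FDR = 0.071), but not without treated 1 (log2 fold change 1.26, FDR = 0.189). Its partner chain COL6A1, with a log2 fold change of 1.28 and no overlap, did not pass (DESeq2 FDR = 0.19). COL6A5, another collagen VI chain and not on the list, was lower in treated CL, with 16.9, 4.27, 98.2 and 5.28 CPM in the controls and 2.47, 4.62, 6.37 and 1.02 CPM in treated CL. Its groups overlapped, and it passed with DESeq2 (log2 fold change -3.1, FDR = 0.0511), but not without treated 1 (FDR = 0.381).

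ELN, the elastin of vessel walls, had 17.4, 28.5, 22.4 and 44.1 CPM in the controls and 173.3, 95.3, 216.1 and 22.5 CPM in treated CL, so that treated 5 again lay among the controls (log2 fold change 2.17, SE 0.60, DESeq2 FDR = 0.0447, and 0.119 without treated 1). MFGE8, a secreted bridge between integrins and dying cells, and HYAL2, a hyaluronidase of the cell surface, did not overlap between groups and passed with DESeq2 (log2 fold changes 1.32 and 1.46, or 1.13 and 1.07 without treated 1, FDR = 0.0655 and 0.0431). The chains of collagen I, a fibrillar collagen, differed less: COL1A1 had a log2 fold change of 0.80 and COL1A2 of 0.30 (SE 0.36 each), with overlapping groups. Of 12 proteases and inhibitors of the matrix 1 was under 0.05. TIMP1, an inhibitor of matrix metalloproteinases, had a log2 fold change of 0.57 with treated 1 and 0.012 without it.

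**Figure D3:**
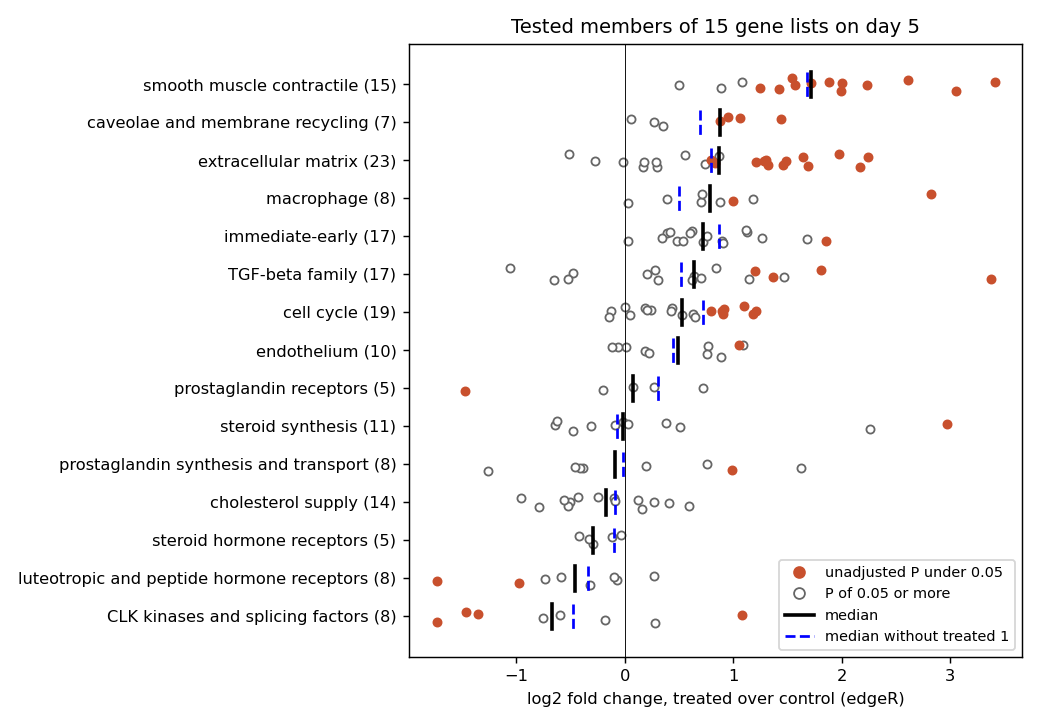
Each point is the edgeR log2 fold change of 1 tested member of a gene list, with the number of members in brackets, filled where the unadjusted P was under 0.05; the solid black bar is the list's median and the dashed blue bar the median without treated 1. Contractile, caveolar and matrix genes lie mostly to the right of 0, with medians of 1.72, 0.88 and 0.87, and hormone receptors and CLK kinases with splicing factors to the left, with medians of -0.46 and -0.67.

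In the transforming growth factor beta (TGF-beta) family 13 of the 17 tested genes had a positive log2 fold change, with a median of 0.64. Under 0.05 were 4 higher genes (8.71% of all genes) and 0 lower genes (3.08%). Without treated 5 there were 7 higher, and without treated 4 there were 5 higher and 2 lower. TGFB3, a ligand of the family, had 7.65, 4.21, 5.43 and 5.17 CPM in the controls and 20.4, 19.6, 33.2 and 5.59 CPM in treated CL. Treated 5 was inside the range of the controls, and the gene passed with DESeq2 (log2 fold change 1.81, SE 0.48, FDR = 0.0562). ACVRL1, a receptor of the family on endothelial cells, had a log2 fold change of 1.20 (SE 0.38) and did not pass (DESeq2 FDR = 0.187). NOV, a matricellular protein, had 9.05, 19.8, 11.7 and 13.3 CPM in the controls and 21.2, 24.5, 459.4 and 54.6 CPM in treated CL, so that its log2 fold change of 3.38 (SE 0.95) rested largely on treated 4. DESeq2 gave NOV no P with all libraries, and an FDR of 0.00151 without treated 1. Its relative CTGF had 236.4 to 309.9 CPM in the controls and 297.4, 809.8, 1254.0 and 137.9 CPM in treated CL, with treated 5 below all controls.

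Fewer genes were lower in treated CL at an unadjusted P under 0.05. GRB14 (ENSCAFG00000010563), an adaptor that binds and restrains the insulin receptor, had 85.5, 83.0, 82.3 and 83.7 CPM in the controls and 18.4, 40.5, 29.5 and 39.1 CPM in treated CL. The controls were nearly equal, and the highest treated library lay far below the lowest of them (log2 fold change -1.39, SE 0.29, DESeq2 FDR = 0.013). Without treated 1 the log2 fold change was -1.17 and the gene passed with DESeq2 again (FDR = 1.62e-05). USP12 (ENSCAFG00000006816), a deubiquitinase, had 694.8, 809.2, 861.3 and 792.2 CPM in the controls and 122.0, 251.2, 400.1 and 419.0 CPM in treated CL (log2 fold change -1.41, SE 0.38, DESeq2 FDR = 0.0751), and its symbol came from the day 5 lists alone.

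AVPR1A (ENSCAFG00000000339), the vasopressin receptor that raises calcium in vascular smooth muscle, had 48.6, 67.0, 31.7 and 18.4 CPM in the controls. The treated libraries were almost equal, at 13, 13.1, 12.4 and 11.4 CPM, and below all controls (log2 fold change -1.73, SE 0.38, DESeq2 FDR = 0.016). LHCGR (ENSCAFG00000002695), the receptor for luteinizing hormone (LH), had 32.2, 21.3, 22.0 and 30.3 CPM in the controls and 12.9, 16.3, 14.5 and 10.4 CPM in treated CL. It too did not overlap between groups, but it did not pass (log2 fold change -0.97, SE 0.28, DESeq2 FDR = 0.128). Without treated 1 its log2 fold change was -0.93 and its DESeq2 FDR 0.0999. AGTR2 (ENSCAFG00000018264), the type 2 angiotensin receptor, had 1.91 to 2.86 CPM in the controls and 0.674 to 1.13 CPM in treated CL, a log2 fold change of -1.55 (SE 0.44, DESeq2 FDR = 0.122, or 0.0965 without treated 1).

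Of the 8 tested receptors for luteotropic and peptide hormones 7 had a negative log2 fold change, with a median of -0.46, or -0.34 without treated 1. AVPR1A and LHCGR were the 2 under 0.05 (3.08% of all genes lower). PRLR, the prolactin receptor, had 207.7, 374.2, 160.7 and 251.5 CPM in the controls and 94.3, 202.7, 109.3 and 252.7 CPM in treated CL, a log2 fold change of -0.59 (SE 0.39) with overlapping groups. FSHR, the receptor for follicle-stimulating hormone, had a log2 fold change of -0.32 (SE 0.28). All 5 tested steroid hormone receptors had negative log2 fold changes of -0.42 to -0.037, none under 0.05.

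HYDIN (ENSCAFG00000020167), a protein of motile cilia, had 4.06, 4.5, 8.52 and 1.85 CPM in the controls and 0.524, 1.04, 1.0 and 0.847 CPM in treated CL (log2 fold change -2.45, SE 0.53, DESeq2 FDR = 0.0112). It was 1 of only 2 ciliary genes that could be tested. NCAM2 (ENSCAFG00000008418) and CDH6 (ENSCAFG00000018951), cell adhesion molecules, passed with DESeq2 without overlap between groups (log2 fold changes -2.05 and -1.21, FDR = 0.0326 and 0.0859). So did the transcription factors SIX4 (ENSCAFG00000015627) and RUNX2 (ENSCAFG00000002008), with log2 fold changes of -1.52 and -0.90 (FDR = 0.0751 and 0.0962). RUNX2, induced in follicles by LH, had 324.7, 410.0, 308.8 and 483.6 CPM in the controls and 196.3, 227.2, 219.5 and 174.5 CPM in treated CL. CLEC2D (ENSCAFG00000031529), a ligand of an inhibitory natural killer cell receptor, had 2.56, 3.44, 6.77 and 8.59 CPM in the controls and 0.749, 1.92, 1.83 and 0.339 CPM in treated CL (DESeq2 FDR = 0.0819, and 0.173 without treated 1).

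**Figure D4:**
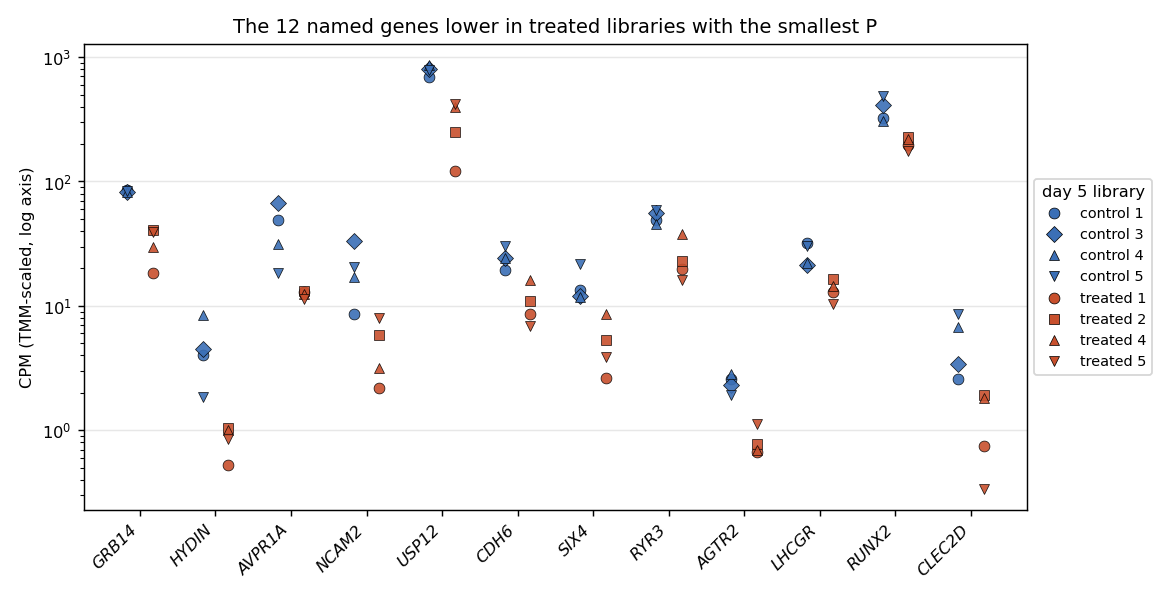
CPM on a log axis for the 12 genes with a symbol that were lower in treated CL with the smallest P-values, with controls in blue, treated libraries in orange and 1 marker shape per animal number. In all 12 genes the groups do not overlap, GRB14 is nearly equal in the 4 controls and AVPR1A nearly equal in the 4 treated libraries.

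Genes of calcium handling were found in both directions. RYR3 (ENSCAFG00000008056), a calcium release channel, had 49.2, 56.0, 45.5 and 58.7 CPM in the controls and 19.9, 22.9, 37.5 and 16.2 CPM in treated CL, with a log2 fold change of -1.12 (SE 0.30, DESeq2 FDR = 0.0962). ITPR3, a channel opened by inositol trisphosphate, had 28.9, 44.7, 30.2 and 19.0 CPM in the controls and 126.7, 59.3, 53.1 and 82.4 CPM in treated CL, with a log2 fold change of 1.39 (SE 0.37, DESeq2 FDR = 0.0751). Without treated 1, its highest library, it did not pass (log2 fold change 1.12, FDR = 0.121). Neither gene overlapped between groups. PNCK, a calmodulin-dependent kinase, passed with DESeq2 (log2 fold change 3.97, FDR = 0.013) at levels of 0.119 to 0.299 CPM in controls and 0.339 to 9.16 CPM in treated CL. Of the 12 calcium genes tested 3 were higher (8.71% of all genes) and 3 lower (3.08%) at an unadjusted P under 0.05. Without treated 4 these were 5 higher and 2 lower. RYR3 and PNCK were among 3 of the 12 genes with a symbol from the day 5 lists alone. Of the other 9, 2 were higher and 1 lower under 0.05. Without overlap were 2 higher (4.78% of all genes) and 0 lower (3.98%).

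The kinases CLK1 and CLK4, which phosphorylate splicing factors, were lower in every treated library. CLK1 had 120.8, 237.0, 152.2 and 251.8 CPM in the controls and 12.5, 115.5, 50.7 and 51.4 CPM in treated CL, a log2 fold change of -1.73 (SE 0.56, DESeq2 FDR = 0.14) that was -1.37 without treated 1. CLK4 had 59.5 to 110.1 CPM in the controls and 7.04 to 50.9 CPM in treated CL (log2 fold change -1.46, SE 0.50). Neither passed with edgeR or DESeq2 on all libraries. Without treated 1 the DESeq2 FDR was 0.0923 for CLK1 and 0.0668 for CLK4. With the animal number as a block, CLK1 had an edgeR FDR of 0.0954. CLK1, CLK4 and RALY had a symbol from the day 5 lists alone. Of the other 5 genes of their list 1 was lower at an unadjusted P under 0.05 (3.08% of all genes lower). Of these 5, 0 did not overlap (4.78% of all genes higher and 3.98% lower). Of all 8 genes tested on the list of CLK kinases and splicing factors 6 had a negative log2 fold change, and RALY, an RNA-binding protein, was higher without overlap (log2 fold change 1.08, SE 0.33, DESeq2 FDR = 0.172).

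No tested gene of the prostaglandin system, the target of the drug included, passed with edgeR or DESeq2. Of 16 genes listed for synthesis and transport 8 had a symbol and were tested, and of 10 listed receptors 5. The other listed genes have no value here. PTGS2, which encodes COX2, had 81.6, 252.0, 339.4 and 189.2 CPM in the controls and 13.6, 156.0, 81.2 and 108.8 CPM in treated CL. The groups overlapped, with the lowest value in treated 1, and the log2 fold change was -1.26 (SE 0.63, edgeR FDR = 0.415), or -0.87 without treated 1. Firocoxib blocks the enzyme, so its transcript is not a measure of whether the drug had acted.

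Of the 8 tested genes of prostaglandin synthesis and transport 4 were higher and 4 lower, with a median of -0.087. PTGES, the inducible synthase of prostaglandin E2, had a log2 fold change of -0.38 (SE 0.37), and PTGIS, the prostacyclin synthase, of 0.20 (SE 0.40). TBXAS1, the thromboxane synthase, was the only one under 0.05, at 11.7, 14.2, 11.0 and 12.3 CPM in the controls and 39.9, 28.2, 9.55 and 20.2 CPM in treated CL (log2 fold change 0.99, SE 0.40, edgeR FDR = 0.412). It was not under 0.05 without treated 1. PTGDS, a synthase of prostaglandin D2, ranged widely in both groups, with 4.62 to 48.4 CPM in controls and 9.04 to 166.0 CPM in treated CL. HPGD, which breaks prostaglandins down, SLCO2A1, which carries them into cells, and HPGDS, the other prostaglandin D2 synthase, had log2 fold changes of -0.46, 0.76 and -0.41 with overlapping groups.

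Among the 5 tested receptors for prostaglandins PTGFR, the receptor for prostaglandin F2 alpha, stood at the lower end. It had 359.3, 476.3, 521.3 and 1104.6 CPM in the controls and 106.2, 192.9, 376.0 and 215.9 CPM in treated CL. Only treated 4 reached the lowest control, and the log2 fold change of -1.47 (SE 0.46) had an FDR of 0.412 with edgeR and 0.141 with DESeq2. PTGER2 and PTGER4, receptors for prostaglandin E2, had log2 fold changes of 0.27 (SE 0.69) and 0.075 (SE 0.42), both negative without treated 2, at -0.88 and -0.46. PTGIR, the prostacyclin receptor, and PPARG, a nuclear receptor for prostaglandin metabolites, had log2 fold changes of 0.72 and -0.20 with overlapping groups.

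Steroid synthesis showed no common direction. The 11 tested genes had a median log2 fold change of -0.014, with 5 higher and 6 lower, and 14 genes of cholesterol supply had a median of -0.17, none under 0.05. STAR and CYP11A1, the gates of steroid synthesis, had no symbol and were not analysed here. FDX1, the electron donor of the first step, had 1265.7, 1503.3, 1125.0 and 960.4 CPM in the controls and 1306.4, 943.6, 712.1 and 1846.8 CPM in treated CL. INSIG1, which restrains sterol synthesis, had a log2 fold change of -0.96 (SE 0.59) with overlapping groups. CYP19A1, the aromatase, ranged from 108.3 to 471.6 CPM in controls and from 71.2 to 347.8 CPM in treated CL. SULT1E1, which inactivates estrogens, was the 1 gene under 0.05 and stood out in treated 2 alone, at 11.4 CPM, with under 1 CPM in each of the other 7 libraries. INHA, the alpha subunit of inhibin, had a log2 fold change of 0.51 with treated 1, which held 1175.1 CPM, and of -0.11 without it.

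Immune genes varied widely between dogs. CD5L, a secreted factor of macrophages, had 3.33, 2.55, 1.24 and 2.36 CPM in the controls and 7.79, 39.4, 3.44 and 16.7 CPM in treated CL. The groups did not overlap, and the gene passed with DESeq2 (log2 fold change 2.82, SE 0.69, FDR = 0.013). The other 7 tested macrophage markers all had positive log2 fold changes, with a median of 0.71, or 0.49 without treated 1, and 1 of them was under 0.05, or 0 without treated 1. The summed level of these 7 markers was 130.5 to 342.2 CPM in controls and 169.7 to 471.2 CPM in treated CL, and their part in the values of CD5L was not tested.

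IDO1, which starts the breakdown of tryptophan to kynurenine, had 3.33, 4.62, 6.12 and 1.74 CPM in the controls and 1.57, 36.8, 7.81 and 37.8 CPM in treated CL. Treated 1 was below all controls and the other 3 above them, and the log2 fold change was 2.41 (SE 0.82, edgeR FDR = 0.412, DESeq2 FDR = 0.128). Without treated 1 it was 2.83, and IDO1 passed with DESeq2 (FDR = 0.00218). HAAO, which acts further down this pathway, had 0.384, 1.66, 1.61 and 2.08 CPM in the controls and 22.5, 4.62, 1.57 and 3.05 CPM in treated CL, with treated 1 the highest. Its log2 fold change was 2.46 (SE 0.84), and 1.14 without treated 1. FASLG, the ligand of the death receptor FAS, was counted at 0.414 to 2.25 CPM in controls and 0.0749 to 0.61 CPM in treated CL, a log2 fold change of -1.65 (SE 0.72, edgeR FDR = 0.412). TNFRSF1B, a receptor for tumor necrosis factor, did not overlap between groups, at 1.66 to 2.81 CPM in controls and 3.53 to 10.1 CPM in treated CL, and passed with DESeq2 (log2 fold change 1.63, FDR = 0.0574), but not without treated 1, its highest library (FDR = 0.114). Of 19 genes of NF-kB signalling and acute inflammation, among them CCL2 and TLR2, 0 were under 0.05 in either direction with edgeR and 0 passed with DESeq2. Without treated 5, 3 were higher and 1 lower at an unadjusted P under 0.05.

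Vessel genes other than those of smooth muscle had smaller medians. The 10 tested endothelial markers had a median log2 fold change of 0.49 and 1 was under 0.05, or 1 to 3 with a library left out. VWF, a clotting factor of endothelial cells, had 336.8, 440.2, 384.9 and 141.7 CPM in the controls and 1130.3, 301.1, 531.7 and 451.9 CPM in treated CL (log2 fold change 0.89, SE 0.46, or 0.42 without treated 1), and KDR, the receptor for vascular endothelial growth factor, had a log2 fold change of 0.0085 (SE 0.40). Among 11 angiogenic factors the median was -0.032. THBS1, an inhibitor of vessel growth, had 380.0, 367.7, 312.1 and 330.7 CPM in the controls and 247.6, 1119.1, 595.9 and 393.2 CPM in treated CL, with treated 1 the lowest and the other 3 above all controls (log2 fold change 0.76, SE 0.42, or 1.03 without treated 1).

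Immediate-early genes, which respond to stimuli within minutes, varied as much within groups as between them. All 17 tested had a positive log2 fold change, with a median of 0.72, yet 1, JUND, was under 0.05, or 0 to 4 with a library left out. Treated 4 had the highest treated value in 15 of the 17 and treated 5 the lowest in 14, and their summed level was 5073.6 CPM in treated 4 and 371.3 CPM in treated 5, against 536.4 to 2133.7 CPM in the controls. Without treated 4 the median was -0.050. FOS showed this spread, with 278.3, 126.1, 713.8 and 646.3 CPM in the controls and 429.4, 637.0, 1388.9 and 13.7 CPM in treated CL. Of 19 cell cycle genes 7 were higher and 0 lower at an unadjusted P under 0.05 (8.71% of all genes higher), among them CDC20 and PLK1, which drive mitosis (log2 fold changes 1.21 and 1.10), with 0 of the 19 free of overlap. That number was 4 without treated 1, 2 without control 3, 3 without control 4, 0 without control 5 and 2 without treated 2. ASPM, a gene of the mitotic spindle and not on the list, was lower in treated CL at an unadjusted P under 0.05. It had 16.7, 77.4, 25.8 and 173.1 CPM in the controls and 1.65, 30.9, 8.5 and 27.1 CPM in treated CL. Its groups overlapped, and it did not pass (log2 fold change -2.1, SE 0.89, DESeq2 FDR = 0.228). CRYAB, a small heat shock protein common in muscle, did not overlap between groups and passed with DESeq2 (log2 fold change 1.62, FDR = 0.0605).

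The difference between treated and control CL on day 5 was compared with that on days 10, 20 and 30, each from 3 treated and 3 control dogs of their own. With edgeR 0 of 14171 genes (0.0%) passed in the interaction of treatment with day against each of the other days, while an unadjusted P under 0.05 was reached by 264, 866 and 1094 of them. With DESeq2 1, 53 and 8 passed. Since the genes below were picked with the day 5 values in view, smaller values on the other days are to be read with that in mind. The 15 contractile genes had a median log2 fold change of 1.73, 0.19, 1.35 and 0.13 on the 4 days in turn, in the joint fit of all libraries. The effect was larger on day 5 at an interaction P under 0.05 in 7 of the 15 against day 10 (1.29% of all genes), 0 against day 20 (1.84%) and 8 against day 30 (5.59%). ACTG2, for example, had log2 fold changes of 3.06 (SE 0.60), 0.19 (SE 0.64), 1.94 (SE 0.66) and 0.065 (SE 0.64) on the 4 days, with interaction FDR of 1.0, 1.0 and 0.616 with edgeR.

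Matrix genes had median log2 fold changes of 0.90, 0.17, 1.14 and -0.51 on days 5, 10, 20 and 30, with a larger effect on day 5 at an interaction P under 0.05 in 1, 0 and 14 of the 23 against the other days in turn (1.29%, 1.84% and 5.59% of all genes). Immediate-early genes had medians of 0.73, -0.56, 3.21 and 0.66, and the effect was smaller on day 5 in 7 of the 17 against day 20 (4.27% of all genes) and in 0 against day 30 (2.13%). For the 12 genes with the smallest P among those lower on day 5 the median was -1.44, -0.26, -0.60 and 0.24. AVPR1A had negative log2 fold changes on all 4 days, of -1.70 (SE 0.81), -2.20 (SE 0.95), -3.83 (SE 1.02) and -0.97 (SE 0.91). Also lower on day 20 were USP12 at -2.26 (SE 0.54), RUNX2 at -2.26 (SE 0.48), HYDIN at -1.6 (SE 0.53) and SIX4 at -1.51 (SE 0.55). RYR3, CDH6 and LHCGR had smaller negative values on day 20, of -0.94, -0.26 and -0.018. GRB14, NCAM2, AGTR2 and CLEC2D had positive ones, of 0.28, 0.4, 1.23 and 0.14. IDO1 turned from 2.44 (SE 0.88) on day 5 to -1.92 (SE 1.01) on day 20 and -2.69 (SE 1.06) on day 30, with interaction FDR of 0.51 and 0.616 with edgeR. PTGS2 had log2 fold changes of -1.23 (SE 0.85), -0.43 (SE 0.97), 0.47 (SE 0.97) and -0.43 (SE 0.98), none larger than 2 standard errors.

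**Figure D5:**
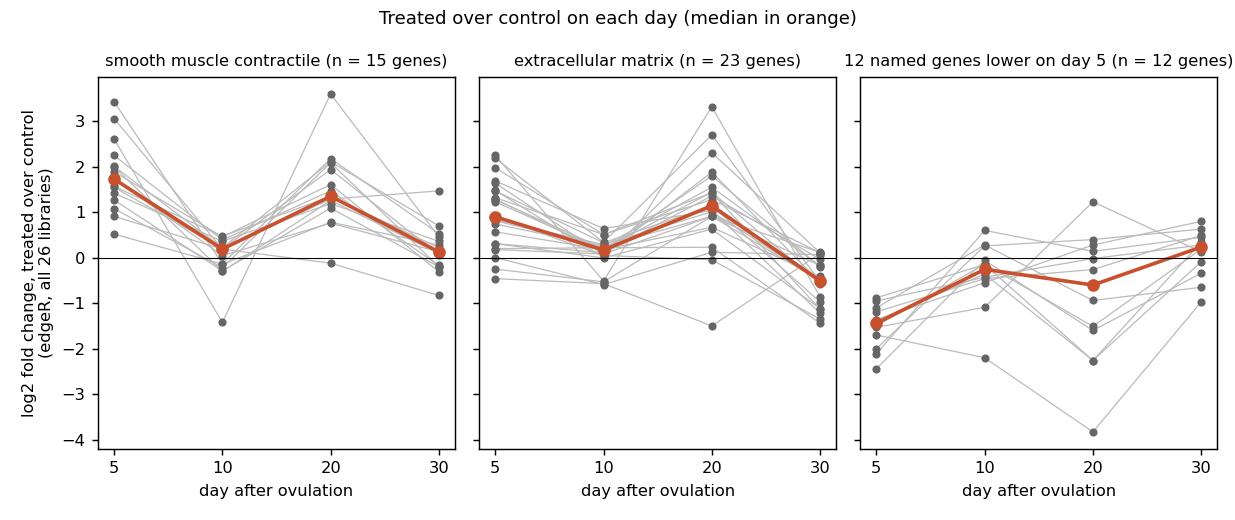
Log2 fold changes of treated over control on days 5, 10, 20 and 30 from a joint edgeR fit of all 26 libraries, with 1 grey line per gene and the median in orange, for the tested contractile genes, matrix genes and the 12 named genes lower on day 5. The contractile median is 1.73 on day 5 and 1.35 on day 20 and near 0 on days 10 and 30, while the genes were chosen with the day 5 values known.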

How the data were processed

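RNA from CL tissue was sequenced after poly-A selection with a kit that does not mark strand, so antisense transcripts cannot be told from the genes they overlap. The authors mapped their single-end reads to the CanFam3.1 build by STAR, counted them per Ensembl gene with featureCounts, and deposited raw read counts for 19856 genes per library, not normalized or filtered. All samples were processed together. The study's methods assign each dog to a group at random, so the day 5 libraries were taken as coming from separate dogs. Replicate names are the numbers in the titles, read here as animal numbers within each group.

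Analyses used R 4.3.3 with edgeR 4.0.16, and DESeq2 1.42.0 and limma 3.58.1 for alternatives. Genes averaging 10 or more reads in 1 or both groups were kept, scaled with TMM factors and tested on the 8 libraries with edgeR's quasi-likelihood test, with P-values adjusted by Benjamini-Hochberg across every tested gene. A gene passed at a P under 0.01 and an FDR under 0.1. Values of single libraries are CPM, and correlations used log2 CPM with a prior count of 2. The interaction with day was fitted on all 26 libraries. Library measures were compared with exact permutation tests (SciPy 1.17.1). The day 5 comparison with edgeR and with DESeq2 was checked on simulated counts, and the other fits were not.

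Gene symbols came from the study's tables of differentially expressed genes, which name 4355 of the identifiers, 4339 of them usably, and 36 of these only for day 5. The other genes were tested but not named, and STAR, CYP11A1, TGFB1, FGF2 and the B cell markers had no symbol. The tables' own fold changes and P-values were not used. The 37 gene lists and their members were chosen with earlier results of these data known. Named were the 12 genes with a symbol and the smallest P in each direction, all tested genes of the 2 prostaglandin lists, members of the other lists with an unadjusted P under 0.01 or else their 2 most counted members, and genes that the study measured by other means. MYH11, TPM1, SYNM, KCNMB1, PGM5, COL6A1, CTGF, CLK1, CLK4, ZP3, JUND, CDC20, PLK1, HAAO, COL6A5, ASPM and CUZD1 were named after their values were seen. Promoter motifs, proteins and genome positions were not analysed here, and 1 named gene and 1 gene list are not reported here. Alternatives were DESeq2, limma voom, RLE factors, other filters, robust dispersions, a joint fit, omission of the 10 most counted genes, the animal number as a block, an FDR under 0.05 alone and the omission of each library. DESeq2 with each library omitted, and lists without treated 1 or without symbols of the day 5 tables, were added after the data were seen.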

Additional observations from a re-analysis of the deposited data

Results flagged for a closer look

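Among 246 groups of 4 libraries looked at, over the named genes and the library measures, 9 held 1 library far from the other 3 on the log2 CPM scale, where chance alone gives about 1 in 20 groups. Of these, 6 concerned controls, of which 5 concerned control 3. Control 3 had 150.3 CPM of CSRP1 against 264.2 to 282.6 CPM in the other controls, 21.6 CPM of HYAL2 against 27.8 to 28.0, 0.948 CPM of CCL5, a chemokine of T cells, against 2.21 to 2.52, 1.01 CPM of EPCAM, an adhesion molecule of epithelia, against 16.8 to 20.2, and 717.1 CPM of CANX, a chaperone of the endoplasmic reticulum, against 644.5 to 651.0. Control 1 had 0.384 CPM of HAAO against 1.61 to 2.08 CPM. In the treated group, treated 1 had 1175.1 CPM of INHA against 337.2 to 415.0 CPM and 22.0 CPM of GDF9, a growth factor of oocytes, against 2.03 to 2.75 CPM. Treated 2 had 12.6 CPM of SLCO2A1 against 42.7 to 52.8 CPM.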

How the results depend on the processing

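The count of 0 genes with edgeR became 100 with DESeq2, 104 with DESeq2 without cutoffs, 4 with the replicate block (COL6A5, ASPM, CLK1 and CUZD1, all lower), 0 to 1 with a library left out, and 9 to 291 with DESeq2 and a library left out. It stayed 0 under limma voom, RLE factors, no filter, both other filters, robust dispersions, the joint fit, omission of the 10 most counted genes and an FDR under 0.05 alone. Genes at an unadjusted P under 0.05 numbered 658 to 2407 with a library left out. DESeq2 gave 1, 53 and 8 genes in the interaction with days 10, 20 and 30. The difference of treated from control total reads was -1113639.8 and ranged from -2279727.8 to 172339.2 with a library left out; that in the share of the 10 most counted genes ranged from -1.68 to 0.0333 percentage points.

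The numbers do not pair the dogs: deviations from the group means correlated by 0.154 on average between samples of the same number and by -0.042 between others, and 2 of 6 samples were closest to their own number. Control 3 and treated 2 had no library of the same number in the other group. The difference with the replicate block therefore came from the 3 same-numbered pairs alone. With this block 444 genes were higher and 644 lower at an unadjusted P under 0.05. Among 119 named genes the log2 fold change turned sign in 15 outside the omissions, and the cause was not tested. With the block it was 0.21 for HPGDS, -0.00076 for PTGIS, -0.73 for PTGER2, -0.51 for PTGER4, 0.11 for FDX1, -0.29 for LCK, -0.11 for LCN2, -0.072 for CCL2, -0.67 for FOS, -0.27 for MCM4, -0.5 for SULT1E1, -0.0037 for TPM1 and -1.12 for ZP3. With limma voom it was -0.11 for PTGER2, -0.12 for PTGER4, -0.04 for KDR, 0.29 for CPA3, -0.41 for FOS and -0.082 for MCM4, with no filter -0.0038 for KDR and -0.0077 for MCM4, and in the joint fit 0.00099 for FDX1. With a library left out it turned in 20 genes, with ranges of BMP15 -2.35 to 0.82, CANX -0.49 to 0.039, CCL5 -0.42 to 0.22, CPA3 -1.28 to 1.46, CYP19A1 -1.13 to 0.11, EGR1 -0.30 to 1.08, FDX1 -0.27 to 0.17, FOS -0.29 to 0.89, GDF9 -1.84 to 0.64, HPGDS -1.31 to 0.43, INHA -0.11 to 0.80, KDR -0.25 to 0.31, LCK -0.23 to 0.59, LCN2 -0.039 to 0.85, MCM4 -0.25 to 0.23, PPARG -0.45 to 0.19, PTGER2 -0.88 to 0.57, PTGER4 -0.46 to 0.31, SERPINE2 -0.69 to 0.049, ZP3 -2.78 to 2.18. Promoter motifs were planned and not run. Genes are called on 4 dogs a group, tissue was whole, and genes without a symbol were not named.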
